A study of Mus musculus with 6 samples.

Results

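The genes described here were 81 mouse regulators of embryonic development, the Pax, Lhx, Six-family, Nkx, Dlx and Sox transcription factors and the Wnt ligands. They were chosen by symbol alone, as protein-coding genes whose symbol joins Pax, Lhx, Dlx, Sox, Wnt or the Six-family stem with a number and at most 1 letter, or Nkx with a number. The rule took 81 of 21887 protein-coding genes, made up of 9 Pax, 8 Lhx, 6 Six-family, 14 Nkx, 6 Dlx, 19 Sox and 19 Wnt genes.

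The chromatin assay CUT&Tag was run on group 2 innate lymphoid cells (ILC2s) from mouse colon, 2 libraries in each of 3 groups. ILC2s are tissue lymphocytes without antigen receptors that make type 2 cytokines. The groups were FK866 plus succinate, FK866, and Control. FK866 is an inhibitor of NAMPT, which makes NAD from nicotinamide, and succinate is an intermediate of the citric acid cycle. All 3 groups were sorted gut cells whose culture medium held 4 cytokines (IL-33, IL-25, IL-7 and IL-2), so the Control cells were stimulated cells and not resting ones. Doses, times, mouse strain and the number of mice were not given in the sources used here. CUT&Tag uses an antibody to direct a transposase to chromatin, and a peak is a stretch enriched for the antibody's target. Because that target was not given in the sources used here, peaks cannot be read as activity or as silencing. In a bulk library, fewer cells with the target at a gene and less of it per cell cannot be told apart. Nothing in the labels ties the 2 libraries of a group to separate cultures or mice, so every p-value covers only the spread among these libraries, which may be technical.

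Pax, Lhx, Six-family, Nkx, Dlx and Sox proteins bind DNA and set the identity of cells in the eye, brain, heart, kidney, pancreas, skeleton and other organs. Wnt proteins are secreted ligands that act through Frizzled receptors and, in the canonical branch, stabilise beta-catenin. Genes of these families often have start sites rich in CG dinucleotides and are classical targets of Polycomb repression and of bivalent chromatin in cells that do not use them. Most are not known for a role in ILC2s.

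The promoters of 5 members show the range of sequence behind the results. Each line below gives the 250 bases before the start site, 5′ to 3′ on the gene's strand, from the RefSeq promoter table of GRCm38.p6, with CG dinucleotides in capitals. Wnt7a (chr6:91411354-91411603, minus strand) and Nkx1-1 (chr5:33434091-33434340, minus strand) are shown because their windows held no peak in either FK866 plus succinate library. Nkx3-2 (chr5:41764221-41764470, minus strand) had peaks in all 6 libraries that covered less in both FK866 plus succinate libraries than in the other 4. Six5 (chr7:19094294-19094543, plus strand) had peaks of nearly even length in all 6 libraries, and Nkx2-1 (chr12:56536909-56537158, minus strand) had none in any library. Nkx2-1 was the first member by symbol with no peak and a promoter entry, and the other 4 were chosen after their values were seen.
Wnt7a: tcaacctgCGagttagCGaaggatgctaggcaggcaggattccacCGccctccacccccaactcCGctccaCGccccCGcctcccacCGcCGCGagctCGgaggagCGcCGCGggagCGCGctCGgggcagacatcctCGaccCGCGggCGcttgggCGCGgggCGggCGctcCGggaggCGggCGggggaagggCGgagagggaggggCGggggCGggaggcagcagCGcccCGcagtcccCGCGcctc
Nkx1-1: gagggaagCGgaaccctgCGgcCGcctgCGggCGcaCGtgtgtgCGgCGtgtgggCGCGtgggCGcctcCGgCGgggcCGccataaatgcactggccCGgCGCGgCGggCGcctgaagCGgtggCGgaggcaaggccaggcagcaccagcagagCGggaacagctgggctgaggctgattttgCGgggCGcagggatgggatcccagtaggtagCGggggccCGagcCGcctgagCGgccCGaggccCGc
Nkx3-2: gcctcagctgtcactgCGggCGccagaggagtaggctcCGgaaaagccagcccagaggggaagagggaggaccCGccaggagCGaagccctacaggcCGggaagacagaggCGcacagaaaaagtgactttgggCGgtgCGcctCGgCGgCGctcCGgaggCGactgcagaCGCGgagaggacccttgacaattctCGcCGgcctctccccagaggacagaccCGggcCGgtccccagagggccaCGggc
Six5: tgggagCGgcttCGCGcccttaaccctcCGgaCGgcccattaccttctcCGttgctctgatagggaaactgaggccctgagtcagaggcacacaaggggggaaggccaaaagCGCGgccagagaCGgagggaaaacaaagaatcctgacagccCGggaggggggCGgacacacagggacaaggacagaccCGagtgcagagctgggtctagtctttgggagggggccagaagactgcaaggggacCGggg
Nkx2-1: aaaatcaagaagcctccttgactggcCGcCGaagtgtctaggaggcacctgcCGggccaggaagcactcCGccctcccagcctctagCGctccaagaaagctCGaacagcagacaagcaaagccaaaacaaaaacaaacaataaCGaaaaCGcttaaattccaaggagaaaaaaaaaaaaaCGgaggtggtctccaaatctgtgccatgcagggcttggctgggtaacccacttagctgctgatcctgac
The Wnt7a promoter held 34 CG dinucleotides and was 77.6% G or C. The Nkx1-1 promoter held 30 (75.2% G or C), the Nkx3-2 promoter 21 (68.8%), the Six5 promoter 13 (62.8%) and the Nkx2-1 promoter 9 (50.8%). No motif other than CG was searched.

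Most of these developmental genes carried peaks in ILC2s, and they did so about as often as other genes. For each gene, peaks were counted over the gene span plus 2 kb at each end, and the covered length is the number of bases of that window under a peak. A peak was present in at least 1 library at 71 of the 81 members and in all 6 libraries at 54. That share, 66.7%, lay near the 64.1% of all protein-coding genes. The members differed in the middle and at the bottom of the range. Of the members, 17 (20.99%) had a peak in 1 to 5 libraries, against 8.7% of all protein-coding genes, and 10 (12.3%) had none, against 27.2%.

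The families were unequal in this. A peak in all 6 libraries was found at 7 of 8 Lhx genes, 5 of 6 Six-family genes, 5 of 6 Dlx genes, 13 of 19 Sox genes, 12 of 19 Wnt genes, 5 of 9 Pax genes and 7 of 14 Nkx genes. The 10 members with no peak were Dlx5, Nkx2-1, Nkx2-9, Pax1, Six6, Sox1, Sox11, Sox14, Wnt2 and Wnt5a. Nkx2-1 is the regulator of thyroid and lung, Pax1 acts in the sclerotome that gives rise to vertebrae, and Sox1 marks neural progenitors. A further 7 had a peak in 1 library only, Pax4, Pax7 and Pax8 among them. Pax7 marks muscle stem cells, Pax8 is a thyroid and kidney factor, and Pax4 acts in pancreatic endocrine cells. The windows of 18 members overlapped the window of a gene outside these families, so a peak there can belong to the neighbour, as with Six5 and Dmpk, Pax6 and Elp4, Wnt5b and Fbxl14, and Sox10 and Polr2f. Of the 63 members without an outside neighbour in the window, 40 (63.5%) had a peak in all 6 libraries. The windows of Wnt3 and Wnt9b overlapped each other, their strongest peaks had the same percentile in every library, and Wnt9b, with no outside neighbour, is among those 63.

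**Figure D1:**
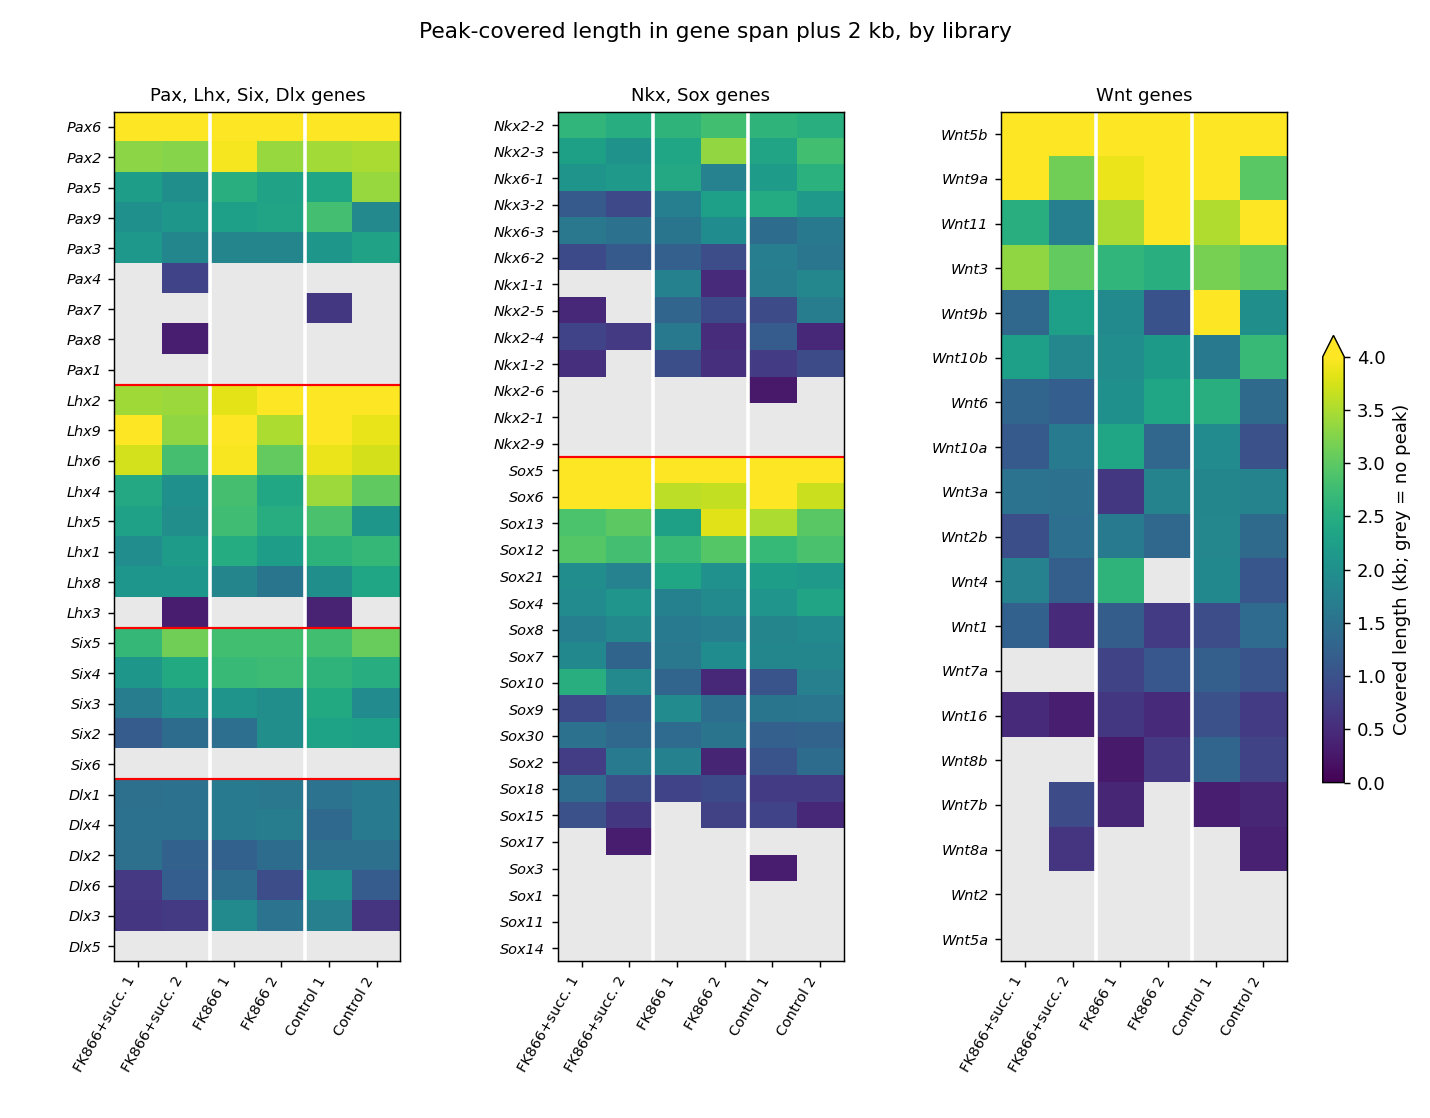
Covered length in kb (colour, capped at 4 kb, grey for no peak) of the members shown (rows, by family and by mean covered length) in the 6 libraries (columns, FK866 plus succinate, FK866 and Control from left to right). Members with peaks in all 6 libraries mostly lie above the other members of their family block. Exceptions are Wnt4, which lies above Wnt1 and Wnt16, Wnt7a, which lies above Wnt16, and Nkx1-1 and Nkx2-5, which lie above Nkx2-4. Nkx1-1, Wnt7a and Wnt8b are grey in both FK866 plus succinate libraries and coloured in the other 4.

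Peaks at the developmental genes were weaker than those at other genes. The strength of a gene was taken as the percentile of its strongest peak, by the authors' −log10 p, within the peak list of the same library, averaged over the 6 libraries. Among genes with a peak in all 6 libraries, the members had a median percentile of 69.0 (interquartile range 61.2 to 73.4, n = 54), against 87.2 (78.6 to 93.5, n = 13984) for other protein-coding genes. These are descriptions across genes, which are not independent replicates, and carry no test. No member stayed above the 90th percentile in every library, whereas 26.3% of the other genes did so. Sox5 came highest at 85.3 and Wnt16 lowest at 35.0. By family the median ran between 64.7 for Nkx and 73.4 for Pax. The covered length differed less, with a median of 2052 bp for the members and 2141 bp for other genes.

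**Figure D2:**
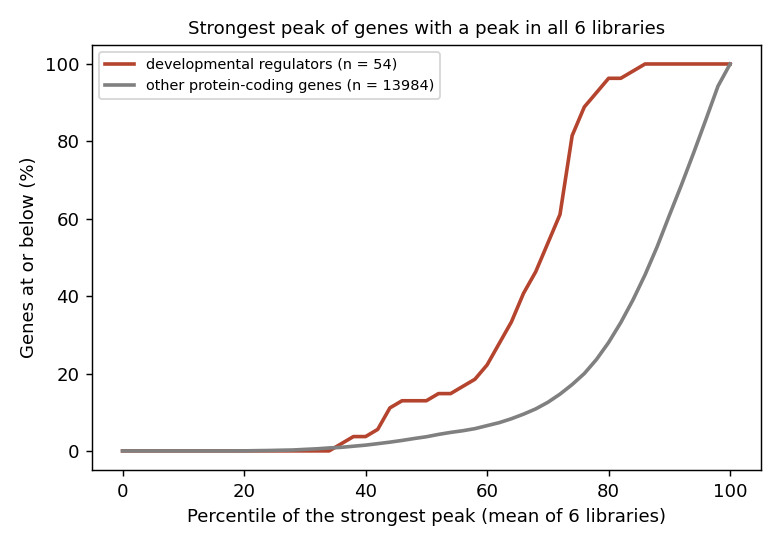
Cumulative share of genes (y axis, %) against the percentile of the gene's strongest peak within its own list (x axis, mean of 6 libraries), for genes with a peak in all 6 libraries. The curve of the 54 developmental regulators lies left of the curve of the 13984 other protein-coding genes, with medians of 69.0 and 87.2.

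Peaks sat at the start sites of the members less often than at those of other genes, although the members' start sites were at least as rich in CG. The promoter table had entries for 60 of the 81 members, each of 250 bases before to 50 bases after the start. Members with peaks in all 6 libraries had a median of 25.5 CG dinucleotides per 300-base window (n = 42), members with peaks in 1 to 5 libraries 19.0 (n = 10), and members with none 20.5 (n = 8). Across all protein-coding genes the same 3 classes had medians of 21.0 (n = 11275), 6.0 (n = 1442) and 2.0 (n = 4775). The members without a peak thus kept CG-rich start sites, which most genes without a peak lacked. A peak lay over the 300-base window in all 6 libraries at 25 of the 42 members (59.5%) and at 86.0% of the genes of that class. The summit of the strongest peak lay a median of 516 bp from the start in the members and 209 bp in all such genes. It lay beyond 2 kb at 11 of the 42 members (26.2%), against 15.1% of all such genes. Among these 11 were Pax6, Pax5 and Six2, whose median distances were 6071 bp, 6325 bp and 4315 bp. The promoter table gives only some of a gene's starts, so a distant summit can lie at a start that the table does not hold.

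Of the 9 paired-box genes, 5 were covered in all 6 libraries, and Pax6 had the longest coverage. Pax6, the master regulator of the eye that also acts in pancreatic islets, had 5311 and 5030 bp covered in FK866 plus succinate, 5123 and 5338 bp in FK866, and 5258 and 5014 bp in Control. The groups overlapped, and the whole range was 5014 to 5338 bp. Its strongest peak, at chr2:105674385-105676878 in Control library 1, ranked at percentile 69.4 to 77.6 of the 6 lists. Pax2, needed for kidney and inner ear, ranged over 3266 to 3953 bp, and Pax5, which commits lymphoid progenitors to the B-cell lineage, over 1992 to 3380 bp. Pax5 had its longest coverage in Control library 2. At Pax5 and Pax2, both FK866 plus succinate libraries lay below both FK866 and both Control libraries. Pax9, a regulator of teeth and thymus, and Pax3, of neural crest and muscle, were covered in all 6 libraries as well, over 1880 to 2800 bp and 1814 to 2307 bp.

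The Six-family genes, which work with Pax proteins in eye, kidney and muscle, held both fairly evenly covered members and members that differed between groups. Six5 had 2670 and 3128 bp in FK866 plus succinate, 2785 and 2787 bp in FK866, and 2790 and 3072 bp in Control. Its peak over the start, at chr7:19092725-19095514 in Control library 1, ranked at percentile 76.7 to 84.5, and the window also holds part of Dmpk. Six4 acts in muscle and kidney progenitors. It had 2123 and 2430 bp in FK866 plus succinate, 2699 and 2737 bp in FK866, and 2606 and 2497 bp in Control. FK866 plus succinate lay lowest and FK866 highest, with no overlap between any pair of groups. Six2 maintains nephron progenitors. It had 1165 and 1421 bp in FK866 plus succinate, 1460 and 1977 bp in FK866, and 2323 and 2260 bp in Control, with no overlap between any pair of groups.

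The LIM-homeodomain genes were covered at 7 of 8 loci in every library. Lhx2, a factor of forebrain and hair follicle stem cells, had 3425 and 3404 bp in FK866 plus succinate, 3833 and 4229 bp in FK866, and 4811 and 4770 bp in Control. Its groups also did not overlap, and the log2 difference between FK866 plus succinate and Control was -0.48 (SE 0.08). The adjusted p was 0.4003 in limma's fit over all genes, which does not pass 0.05. The strongest Lhx2 peak, at chr2:38350471-38352122 in Control library 1, ranked at percentile 70.5 to 77.5 and lay within 123 bp of a start in every library. Lhx9, needed for the gonad, ranged over 3339 to 4488 bp and Lhx6, a factor of cortical interneurons, over 2819 to 3956 bp. Lhx3, a pituitary and motor neuron factor, had a peak only in FK866 plus succinate library 2 (326 bp) and in Control library 1 (379 bp).

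Among the homeobox genes of the Nkx and Dlx families, long-covered and thinly covered loci stood side by side. Nkx2-2, which acts in the ventral neural tube and pancreas, ranged over 2497 to 2782 bp in the 6 libraries. Nkx2-3, needed in the stroma of spleen and gut lymphoid tissue, ranged over 2039 to 3359 bp, and the islet factor Nkx6-1 over 1780 to 2562 bp. The Dlx genes pattern forebrain and jaw. Dlx1, Dlx4 and Dlx2 ranged over 1474 to 1661 bp, 1369 to 1681 bp and 1240 to 1482 bp. At Nkx2-3 and Dlx1, both FK866 plus succinate libraries lay below both FK866 and both Control libraries. They overlapped FK866, Control or both at Nkx2-2, Nkx6-1, Dlx2 and Dlx4. Dlx3, of skin and placenta, had 629 and 679 bp in FK866 plus succinate, 1917 and 1521 bp in FK866, and 1744 and 624 bp in Control, so FK866 plus succinate lay below FK866 and overlapped Control.

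The Sox family held the member with the strongest peak. Sox5, a cartilage and neuronal factor, had 6363 and 5551 bp in FK866 plus succinate, 5379 and 6475 bp in FK866, and 5585 and 6169 bp in Control. Its groups overlapped. Its main peak covered the high-coordinate end of the gene (chr6:144781114-144783025 in Control library 1) at percentile 82.5 to 87.9, and weaker peaks lay inside the gene. Sox6, its partner in cartilage, ranged over 3594 to 4836 bp, and Sox13, which marks gamma-delta T cells that make IL-17, over 2281 to 3827 bp. Sox4, which is needed in lymphocyte progenitors, ranged over 1762 to 2335 bp and had its strongest peak 83.0 bp from its start by the median.

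The Wnt ligand genes ran between the longest covered length of any member and none. Wnt5b, a non-canonical ligand, had 8611 and 8958 bp in FK866 plus succinate, 8252 and 7815 bp in FK866, and 8782 and 7220 bp in Control. FK866 plus succinate lay above FK866 and overlapped Control. The strongest peak in its window (chr6:119478693-119481544 in Control library 1) ranked at percentile 77.9 to 87.0, lay 11987 to 13735 bp from the nearest start in the table, and the window also takes in Fbxl14. Wnt9a, a ligand of joint formation, ranged over 2973 to 5188 bp. Wnt11, a non-canonical ligand of kidney and heart, had 2522 and 1721 bp in FK866 plus succinate, 3495 and 4047 bp in FK866, and 3531 and 4434 bp in Control. Both FK866 plus succinate libraries lay below the other 4. Its start-site peak, at chr7:98838107-98839252 in Control library 1, was called in all 6 libraries, and the rest of the window had less coverage in both FK866 plus succinate libraries than in the other 4.

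Adding succinate to FK866 went with less peak coverage at a few of these genes, most of all at Wnt7a, Nkx1-1 and Wnt8b, and none of them passed the test across all genes. The tests used log2(covered bp + 100) of the 15362 genes with a peak in at least 2 libraries, of which 64 were members. The fits use limma with Benjamini-Hochberg adjustment, and the 3 comparisons share libraries, so they are not independent of each other. Wnt7a encodes a ligand that patterns the limb and the female reproductive tract. It had 0 and 0 bp in FK866 plus succinate, 813 and 1083 bp in FK866, and 1218 and 1044 bp in Control. A peak lay across its start site in each FK866 and Control library and in neither FK866 plus succinate library, as at chr6:91410846-91411928 in FK866 library 2 and chr6:91410682-91411899 in Control library 1. These were peaks of middle rank, at percentiles 45.3 and 61.2 in FK866 and 66.9 and 53.2 in Control.

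Nkx1-1 is a homeobox gene of the developing nervous system with a CG-rich start. It had 0 and 0 bp in FK866 plus succinate, 1753 and 471 bp in FK866, and 1696 and 1845 bp in Control. Several short peaks made up that length, as at chr5:33434244-33434714 in FK866 library 2 and chr5:33434078-33434714 in Control library 2, and the best ranked at percentile 53.1. Wnt8b is a ligand of the developing forebrain. It had 0 and 0 bp in FK866 plus succinate, 286 and 669 bp in FK866, and 1303 and 828 bp in Control. Its peaks lay inside the gene, as at chr19:44511311-44511979 in FK866 library 2 and chr19:44511356-44511865 in Control library 1. They lay between 16988 and 18307 bp from the start. The strongest peak of each library ranked at percentiles 50.6 and 33.6 in Control, and at 15.7 or lower in FK866. The Wnt8b window overlaps that of Sec31b, and whether these peaks belong to that neighbour was not tested. All 3 genes had peaks in both libraries of FK866 and of Control and in neither of FK866 plus succinate.

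These 3 were 4.69% of the 64 members tested, against a background of 0.449% of all tested genes for FK866 plus succinate against FK866 and 0.729% against Control. The reverse pattern was met by 0 members, against 0.937% and 0.475% of tested genes. With 2 libraries against 2, the smallest two-sided exact permutation p for a single gene is 0.333, so presence alone cannot pass 0.05. With only the higher-scoring 50% of each list, 0 members had peaks in both FK866 libraries and neither FK866 plus succinate library. The background of the libraries, inferred from the steps of the deposited fold values, was 1.74 and 1.25 fragments per position in FK866 plus succinate, 2.11 and 1.60 in FK866, and 1.85 and 2.14 in Control. It was taken as a relative measure of depth. Only 35.1% to 51.1% of the fold values used fell on the inferred steps, and no read counts were at hand to check it. The inferred background was lower in both FK866 plus succinate libraries than in both Control libraries and overlapped that of FK866. Its part in these results was not tested.

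In limma's fit, 0 members and 0 genes (0.0% of those tested) had an adjusted p under 0.05 for FK866 plus succinate against FK866. Unadjusted, 9 members were lower and 1 was higher at p under 0.05, against 4.1% and 4.73% of all tested genes. Of the 64 members, 41 had a negative difference (64.1%, against 51.4% of tested genes) and the median difference was -0.11, against -0.007 for all tested genes. Wnt7a had the smallest adjusted p of the members, 0.2319, at a log2 difference of -3.38 (SE 0.26). The differences of Nkx1-1 and Wnt8b were -3.36 (SE 0.59, adjusted p = 0.3449) and -2.45 (SE 0.47, adjusted p = 0.3611). With only peaks of q under 0.05 counted, Wnt7a passed the test, with an adjusted p of 0.0393 against FK866 and 0.02966 against Control in limma. Genes outside these families passed in the same fits as well, and the counts are given further below. Where a group is at 0 the fitted values depend on the added 100 bp and are no bounds.

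Partial versions of the pattern were seen at other Nkx genes. Nkx2-5, the cardiac homeobox gene, had 458 and 0 bp in FK866 plus succinate, 1304 and 894 bp in FK866, and 908 and 1680 bp in Control. Nkx1-2, active in the early neural plate, had 562 and 0 bp in FK866 plus succinate, 961 and 539 bp in FK866, and 715 and 928 bp in Control. Nkx3-2, a factor of axial skeleton and spleen, had 1127 and 879 bp in FK866 plus succinate, 1720 and 2250 bp in FK866, and 2459 and 2159 bp in Control. At Nkx2-5 and Nkx3-2 both FK866 plus succinate libraries lay below the other 4, while at Nkx1-2 they overlapped FK866 library 2. The log2 differences from FK866 were -2.32, -1.68 and -0.92 in the order named, with adjusted p-values of 0.5645, 0.6757 and 0.3706 from limma.

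A few members went the other way. Sox18, a factor of blood and lymph vessels, had 1436 and 951 bp in FK866 plus succinate, 798 and 899 bp in FK866, and 714 and 701 bp in Control. Sox10, a neural crest and glial factor whose window overlaps Polr2f, had 2530 and 1879 bp in FK866 plus succinate, 1311 and 449 bp in FK866, and 1038 and 1748 bp in Control. In both genes the FK866 plus succinate libraries lay above the other 4. The Sox18 difference from Control was 0.65 (SE 0.22, adjusted p = 0.5195 in limma). Both libraries of FK866 plus succinate lay below both of FK866 at 23 members (35.94%, background 21.8%) and above them at 9 (14.06%, background 17.9%).

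**Figure D3:**
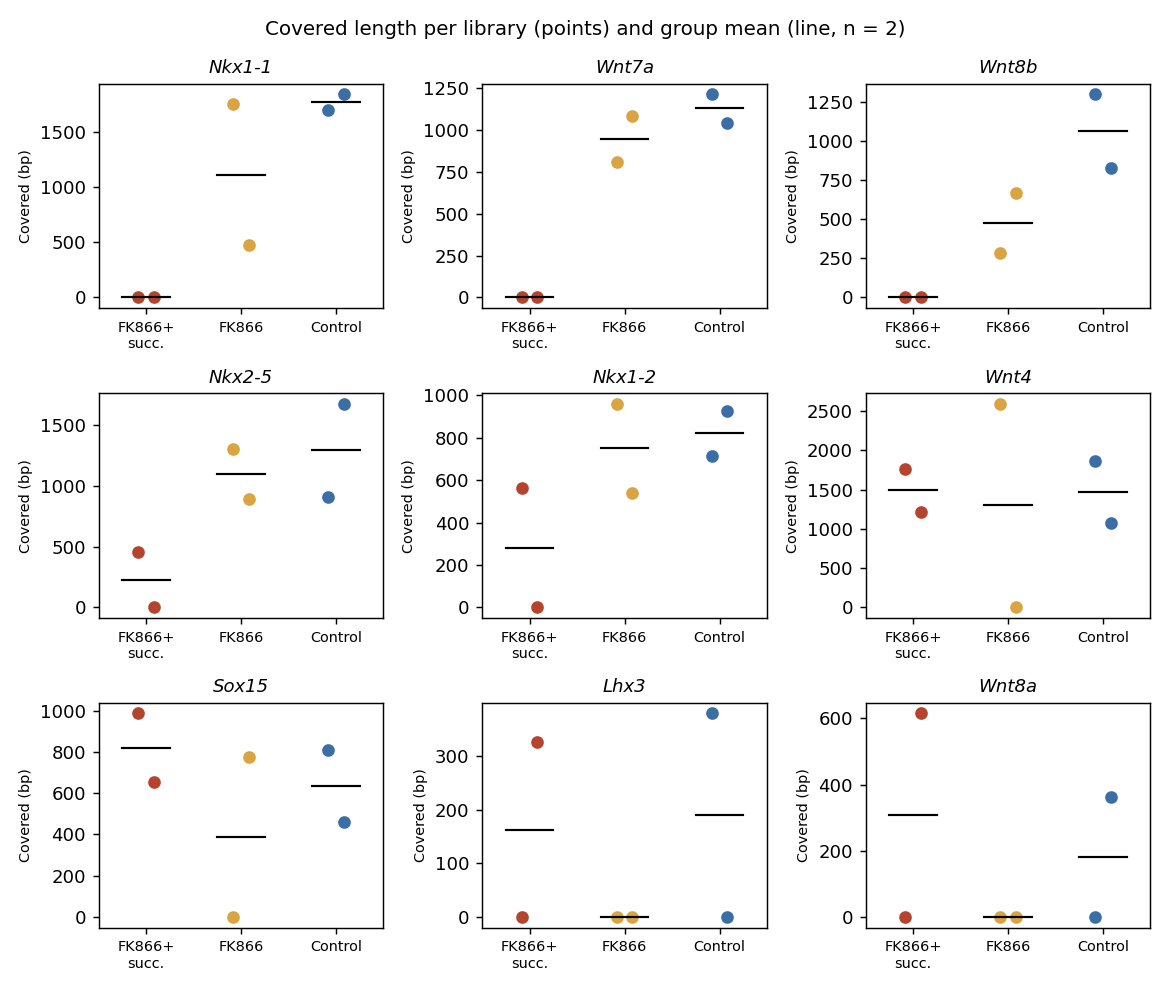
Covered length in bp (y axis, each panel with its own scale) of the 9 members that were among the 5 largest differences of at least 1 comparison, with 1 point per library and a line at the mean (n = 2 per group). Wnt7a, Nkx1-1 and Wnt8b are at 0 in both FK866 plus succinate libraries, and Wnt4, Sox15, Lhx3 and Wnt8a differ mainly between libraries of the same group.

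Against Control, FK866 plus succinate had the most members with less coverage, again with 0 members and 0 genes past an adjusted p of 0.05 in limma (0.0% of tested genes). At an unadjusted p under 0.05, 12 members were lower and 1 was higher, against 5.62% and 3.26% of all tested genes. The 12 were Nkx1-1, Wnt7a, Wnt8b, Nkx2-5, Nkx3-2, Wnt16, Wnt11, Six2, Nkx6-2, Lhx4, Lhx2 and Lhx1, and the 1 higher was Sox18. These names were read from the fit after it was made. The smallest adjusted p was that of Wnt7a, 0.2157, at a log2 difference of -3.62 (SE 0.26, 95% interval -4.29 to -2.94). Negative differences made up 49 of 64 (76.6%, against 57.2% of tested genes), and the median was -0.15, against -0.035 for all tested genes. Both libraries lay below both Control libraries at 25 members (39.06%, background 24.5%) and above them at 3 (4.69%, background 13.4%). Without the members whose windows overlap a gene outside the families, 38 of 47 were negative and the median was -0.21.

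FK866 alone against Control gave its largest differences mostly at genes with a library at 0. In limma, 0 members and 0 genes (0.0%) had an adjusted p under 0.05. Unadjusted, 4 members were lower (Nkx6-2, Lhx8, Wnt3 and Lhx2) and 0 higher, against 3.77% and 1.58% of tested genes. No member had peaks in both libraries of a group and in neither of the other, against backgrounds of 0.749% for Control alone and 0.163% for FK866 alone. Negative differences made up 43 of 64 (67.2%, against 57.5%), with a median of -0.14 against -0.027. Both FK866 libraries lay below both Control libraries at 17 members (26.56%, background 19.9%) and above them at 5 (7.81%, background 12.8%).

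The largest single differences of FK866 from Control rested on individual libraries. Wnt4, a ligand of kidney and ovary, had 2595 and 0 bp in FK866 and 1864 and 1074 bp in Control (log2 difference -1.55, SE 1.58). Without FK866 library 2 its difference was 0.83. Sox15, a factor of muscle progenitors, had 0 and 775 bp in FK866 and 809 and 459 bp in Control (-1.27, SE 1.08), and without FK866 library 1 the difference was 0.30. Lhx3 had 0 and 0 bp in FK866 and 379 and 0 bp in Control. Wnt8a, a ligand of the early embryo, had 0 and 0 bp in FK866 and 0 and 364 bp in Control. The adjusted p from limma was 1.0 for each of these 4 and for Wnt8b, whose difference was -1.07.

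Summed over the 81 members, the covered length stepped down through the groups. It was 127.4 and 123.0 kb in FK866 plus succinate, 138.4 and 131.3 kb in FK866, and 151.1 and 140.5 kb in Control, and no pair of groups overlapped. The means were 125.2 ± 3.09 kb, 134.8 ± 5.02 kb and 145.8 ± 7.49 kb (SD, n = 2 each). Over all protein-coding genes the sums were 36.54 and 39.51 Mb in FK866 plus succinate, 36.89 and 37.44 Mb in FK866, and 40.25 and 37.29 Mb in Control, and the groups overlapped. FK866 plus succinate differed from FK866 by -7.14% in the members and by 2.31% over all genes, and from Control by -14.1% and -1.93%. FK866 differed from Control by -7.49% in the members and by -4.14% over all genes. The number of members with a peak was 58 and 62 in FK866 plus succinate, 62 and 60 in FK866, and 66 and 63 in Control. No p was computed for these sums.

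Between FK866 plus succinate and the other groups, the Nkx family had the largest percent difference. Its 14 genes summed to 12.42 and 10.88 kb in FK866 plus succinate, 17.83 and 15.46 kb in FK866, and 17.48 and 18.11 kb in Control. The FK866 plus succinate mean differed by -30.0% from FK866 and by -34.5% from Control, without overlap, while FK866 and Control overlapped. With each library left out in turn, the difference from FK866 ranged between -34.7% and -24.6%. The 6 Dlx genes summed to 5.76 and 6.12 kb in FK866 plus succinate, 7.90 and 7.18 kb in FK866, and 8.13 and 6.58 kb in Control, again below both other groups without overlap. With the window widened to 5 kb the Dlx difference from FK866 shrank, at -5.0% in place of -21.3%.

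The remaining families had smaller percent differences between FK866 plus succinate and either other group. Between FK866 and Control, Lhx (-11.4%) and Wnt (-10.3%) differed more than Nkx (-6.45%) and Dlx (2.53%). The Lhx sums were 20.41 and 18.18 kb in FK866 plus succinate, 21.95 and 19.44 kb in FK866, and 24.21 and 22.53 kb in Control, with both treated groups below Control. Between FK866 plus succinate and Control, the Pax sum differed by -7.15%, the Six-family sum by -13.2% and the Wnt sum by -16.5%, without overlap. Sox was the exception. Its 19 genes summed to 31.86 and 30.54 kb in FK866 plus succinate, 28.56 and 29.98 kb in FK866, and 31.27 and 31.09 kb in Control, so that FK866 lay below both other groups and FK866 plus succinate overlapped Control. Whether the families differ from one another was not tested.

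**Figure D4:**
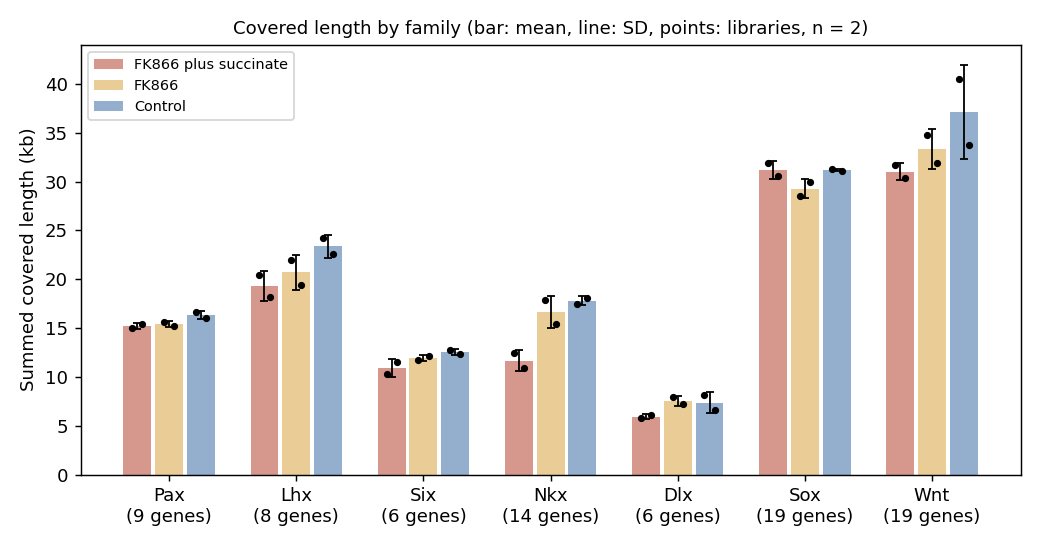
Summed covered length in kb (y axis) of each family (x axis), as the mean (bar) with SD (line) and the 2 libraries (points) of FK866 plus succinate, FK866 and Control. The Nkx and Dlx bars of FK866 plus succinate (11.65 and 5.94 kb) are below those of FK866 (16.64 and 7.54 kb) and Control (17.79 and 7.35 kb), and the Sox bars are close to each other.

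Close to their start sites the members had less coverage in FK866 plus succinate than in the other groups. Within 1 kb of the start of the 60 members with a promoter entry, the mean share covered was 34.9 and 32.1% in FK866 plus succinate, 38.7 and 36.8% in FK866, and 40.3 and 40.0% in Control. Over 17492 protein-coding genes it was 39.2 and 39.0%, 40.4 and 40.3%, and 40.7 and 40.5% in the same groups. Neither set of values overlapped between groups. Between 1 and 3 kb downstream, the members had 10.4 and 7.8% covered in FK866 plus succinate. They had 13.8 and 10.7% in FK866 and 13.4 and 14.2% in Control. Genes in general had 6.8 and 6.9%, 7.7 and 7.9%, and 7.9 and 7.9% in the same groups. FK866 plus succinate was thus lowest in genes in general as well. Between 1 and 3 kb upstream the groups of the members overlapped, with 3.8 and 7.0% in FK866 plus succinate, 8.0 and 6.2% in FK866, and 7.0 and 7.6% in Control. In every group the downstream share was higher in the members than in genes in general. No test was made of these shares.

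**Figure D5:**
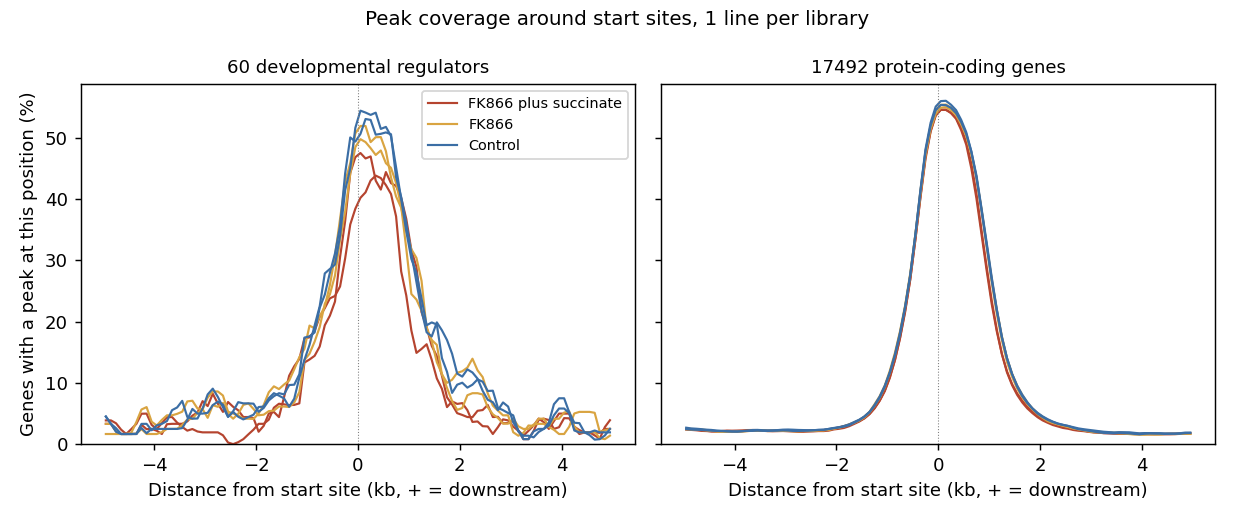
Share of genes with a peak at each position (y axis, %) against the distance from the start site (x axis, kb, positive downstream), with 1 line per library, for 60 developmental regulators (left) and 17492 protein-coding genes (right). The members' group profiles reach 45.0% in FK866 plus succinate, 50.9% in FK866 and 53.6% in Control, and the general profiles reach 54.6, 55.2 and 55.7%.

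Most partners of these families were covered. Of 15 Wnt receptor and co-receptor genes, all had a peak in some library and 12 in all 6, and the 12 genes of Wnt signal transduction and 2 of Wnt secretion were covered in every library. Of 11 secreted Wnt inhibitors, 5 were covered in all 6 libraries and Dkk2, Sfrp2 and Sfrp4 in none. The nuclear factors of the pathway were covered in all 6 libraries at 7 of 8 genes, and the cofactors of Pax, Lhx and Six-family proteins at 13 of 18. All 22 Polycomb group genes were covered in all 6, with a median percentile of 88.7. In each of these lists and each comparison, 0 genes had an adjusted p under 0.05 in limma.

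Some genes of these lists had the pattern of Wnt7a. Fzd10, a Frizzled receptor, had 0 and 0 bp in FK866 plus succinate, 731 and 513 bp in FK866, and 872 and 668 bp in Control (unadjusted p = 0.0005103 against FK866 in limma). Pygo1, a nuclear partner of beta-catenin, had 0 and 0 bp in FK866 plus succinate, 1002 and 292 bp in FK866, and 1200 and 903 bp in Control. Fzd6 went the other way, with 2155 and 1815 bp in FK866 plus succinate, 1292 and 1352 bp in FK866, and 1366 and 1366 bp in Control. These 3 were picked from the lists after their values were seen. The 15 receptors had 7 negative and 7 positive differences between FK866 plus succinate and FK866 among the 14 tested, with a median of -0.005.

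All 15 defining ILC2 genes had peaks in all 6 libraries. Their summed covered length was 113.7 to 117.5 kb in FK866 plus succinate, 109.2 to 117.9 kb in FK866, and 118.6 to 123.3 kb in Control. Both treated groups thus lay below Control here too, and they overlapped each other. Among markers of other cells, peaks were present in all 6 libraries at 6 of 10 T-cell genes, 4 of 8 B-cell genes, 4 of 10 epithelial genes, 3 of 8 stromal genes, 2 of 8 myeloid genes and 3 of 7 endothelial genes. Cd8a, Cd8b1, Ms4a1, Krt20, Cdx1, Col3a1, Dcn, Adgre1 and Tek were among those with none in any library. Other markers had peaks as strong as those of ILC2 genes, as at Cd68, Cd79a, Lat, Epcam and Cd4 (mean percentiles 94.8, 84.3, 81.7, 80.3 and 80.2). For genes covered in all 6 libraries, the median percentile was 78.8 in the ILC2 list. It was 69.3 for T-cell, 74.6 for B-cell, 57.1 for epithelial, 72.1 for stromal, 86.4 for myeloid and 67.5 for endothelial genes. Enteric neuron and glia markers, 5 of 8 covered in all 6 libraries, summed to 6.0 to 7.1 kb in FK866 plus succinate, 9.5 to 9.9 kb in FK866, and 10.9 to 12.2 kb in Control, without overlap between the groups. The list thus moved with the Nkx and Wnt genes above, and its part in those results was not tested.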

How the data were processed

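CUT&Tag of cultured mouse colon ILC2s was deposited as 1 peak list per library. Reads were trimmed with cutadapt 1.9 and aligned with Bowtie2 2.5.0 to mm10, per the submitters' processing notes; the sources used here name no peak caller, caller settings or antibody. Each list has the 10 narrowPeak columns. The deposited score is 10 times the −log10 p with decimals dropped in 99.88% to 99.98% of peaks. The authors' fold (a ratio to local background), −log10 p and −log10 q-value are peak-wise values of 1 library and were used only to rank or filter peaks within a list. The depth as read counts is unknown, and libraries held 40320 to 56361 peaks over 38.96 to 43.84 Mb on 21 chromosomes, with 43 to 55 peaks on other sequences left out.

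Gene spans and promoter sequences came from RefSeq tables of GRCm38.p6, whose chromosome coordinates are those of mm10. Covered bp were computed over each span plus 2 kb with pandas 2.3.3 and numpy 2.4.6 (Python 3.11.15). Genes with a peak in at least 2 libraries were tested as log2(covered bp + 100) with limma 3.58.1 in R 4.3.3 (lmFit on all 6 libraries, eBayes with trend) and Benjamini-Hochberg adjustment over all 15362 genes, with a threshold of 0.05. The fit was tested on simulated data. Alternatives changed the peaks used, the window, the minimum of libraries, the pseudocount and the libraries. Groups came from the sample titles. Named genes were the 3 longest-covered of each family, those with peaks in both libraries of a group and neither of another, and the 5 largest differences per comparison. A further part of the rule, a percentile above 90 in every library, took 0 members. Members, lists and rules were chosen with earlier results of these data known. A few genes are not reported here by name. Genes named outside the rule were chosen after their values were seen.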

Additional observations from a re-analysis of the deposited data

How the results depend on the processing

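The lists hold called peaks and no read counts, so a missing peak is a signal below the caller's threshold in that library, and depth is known only through the inferred background. The median difference of the members stayed below 0 under all 19 alternatives of each comparison, ranging over -0.153 to -0.033 for FK866 against Control, -0.249 to -0.017 for FK866 plus succinate against FK866, and -0.315 to -0.085 for FK866 plus succinate against Control. Genes with an adjusted p under 0.05 in limma were 0 in each comparison; with no filter on libraries they were 27, 22 and 49 in that order. With the higher-scoring 50% of each list they were 11 for FK866 plus succinate against FK866 and 14 against Control. With only peaks of q under 0.05 they were 33 and 43, and Wnt7a was the member among them (adjusted p = 0.0393 against FK866 and 0.02966 against Control). The cause was not tested.

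Members with peaks in both Control libraries and neither FK866 library were 1 (Wnt8b) with q under 0.05, 2 (Dlx3 and Sox2) with the higher-scoring 50%, 1 (Wnt8a) with 5 kb flanks, and 1 to 4 with a library left out; the reverse count was 0 to 1. Those with peaks in FK866 but not in FK866 plus succinate were 5 with q under 0.05, 0 with the higher-scoring 50%, and 3 to 5 with a library left out, against 3. The reverse was 1 (Sox18) with the higher-scoring 50% and 0 to 5 with a library left out. Against Control the count was 7 with q under 0.05 and 3 to 6 with a library left out. The reverse was 1 (Sox18) with the higher-scoring 50%, 1 (Pax8) with 5 kb flanks, and 0 to 3 with a library left out. A group left with 1 library meets these patterns on that library alone. The shares of all tested genes under these alternatives are not given here, so these counts cannot be set against a background.

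The summed covered length in FK866 plus succinate, FK866 and Control was 95.2, 116.0 and 125.7 kb with q under 0.05. In the same order it was 92.0, 98.8 and 112.1 kb with the higher-scoring 50%, and 104.2, 112.7 and 121.5 kb for the span alone. With 5 kb flanks it was 139.8, 148.4 and 158.8 kb. With lists cut to equal length FK866 plus succinate gave 115.8 kb. The sums of FK866 and Control for cut lists are not given here, so that value allows no comparison of groups. FK866 against Control turned positive for Wnt4 with 5 kb flanks (0.061), with q under 0.05 (0.159) and without FK866 replicate 2 (0.828), and for Sox15 without FK866 replicate 1 (0.296); with a library left out Wnt4 ranged over -3.924 to 0.828 and Sox15 over -2.834 to 0.296. With the replicate number as a block, 0 genes were called in each comparison. Same-numbered libraries had deviations correlated at -0.015, 0.025 and -0.134 over 15362 genes. These values cannot show whether same-numbered libraries shared a mouse, sort or batch, which the labels do not give.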
